A study of Mus musculus with 15 samples.

Results

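The comparison described here set 3 cultures of 1 mouse large cell neuroendocrine lung carcinoma line, 46LCNEC_cell, against 3 samples of normal lung, Lung, across every gene of the expression matrix. These are 6 of the 15 samples of the series, assigned to the 2 groups by their labels, and the comparison was chosen with earlier results of these data known. The 46LCNEC cells came from a lung tumor of a QKO mouse, which carries floxed tumor suppressor genes that include Rb1 and Trp53 together with a null Rbl1, after Ad-CMVcre, an adenovirus with Cre recombinase under a promoter active in many cell types, was given through the trachea. They were 1 line at passage 17, grown as an adherent monolayer in RPMI with fetal calf serum, insulin, transferrin and selenium, epidermal growth factor and hydrocortisone, and A, B and C were 3 dishes of that line. The dishes therefore show the spread between cultures, not between tumors or mice. Lung was lung tissue of CT3, CT4 and CT5, littermates of the mice that received the allografts of the study. Those recipients were QKO mice. Control lungs from which the study took genomic DNA carried the floxed genes and the null Rbl1, and whether CT3, CT4 and CT5 had that genotype, and their age and sex, are not given in the sources used here. For contrast, the 3 flasks of 57SCLC_cell were used, a small cell lung carcinoma line at passage 11 from a QKO mouse given Ad-K5cre, grown in suspension. Read against its label, 46LCNEC_cell held Ncam1 and Uchl1 above the lung, while most other neuroendocrine markers were at or below the level of Lung, as given with their values below.

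Large cell neuroendocrine carcinoma is a high-grade lung cancer with large cells, many mitoses and neuroendocrine markers. The retinoblastoma proteins hold back the E2F transcription factors, which drive the genes of DNA replication and mitosis, and p53 activates genes that stop the cell cycle or start apoptosis, so that both sets of genes are of interest in tumors without Rb1 and Trp53. Normal lung is a mixture of alveolar, airway, endothelial, immune and mesenchymal cells, most of which do not divide. A line of 1 cell type was thus compared with a tissue of many, and in such bulk samples fewer cells of a type and less RNA per cell cannot be told apart.

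The 6 samples held between 23471321 and 35434251 reads counted to genes. Values are normalized counts, that is reads divided by the DESeq2 size factor of the sample, and n = 3 per group. Values after ± are standard deviations, with the dishes given before the lungs, and a signed number after them in parentheses is the log2 difference. Differences are of log2(normalized count + 1), 46LCNEC_cell minus Lung, with their standard error (SE) and the Benjamini-Hochberg adjusted p of limma over all genes tested. This scale understates the change of genes with low counts, so that a group without reads is set at 3 reads over the group and gives a lower bound. Genes rose or fell where the adjusted p was at most 0.01 and the change at least 2-fold. Replicates of both groups differed by more than counting noise (chi-square per degree of freedom 7.28 to 28.4). Some genes that are in use in nearly all cells, such as B2m, are listed at 0 in all 15 samples, and such a 0 is not read as absence of the RNA. Of 702 genes in the lists used here, 47 are listed in this way.

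Of the 55359 genes in the matrix, 18142 reached 10 normalized counts in 3 or more of the 6 samples and were tested. 3745 genes (20.6%) were higher in 46LCNEC_cell and 6342 (35.0%) were lower. The counts of the gene lists that follow stand beside these 2 percentages, and a list with shares close to them is described for the values of its members only. A gene under 10 normalized counts in every sample of 1 group could pass this filter through the other group only. Its direction was then fixed by the filter, also where this is not repeated below. Changes of at least 8-fold were found for 915 of the higher and 3393 of the lower genes. The median difference over all genes tested was -0.23 on the log2 scale, with quartiles of -1.98 and 0.80, as seen in the plot of both group means. The median was -0.11 with TMM scaling and -0.02 with upper quartile scaling, which then counted 4211 and 4477 genes as higher and 6098 and 5882 as lower.

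**Figure D1:**
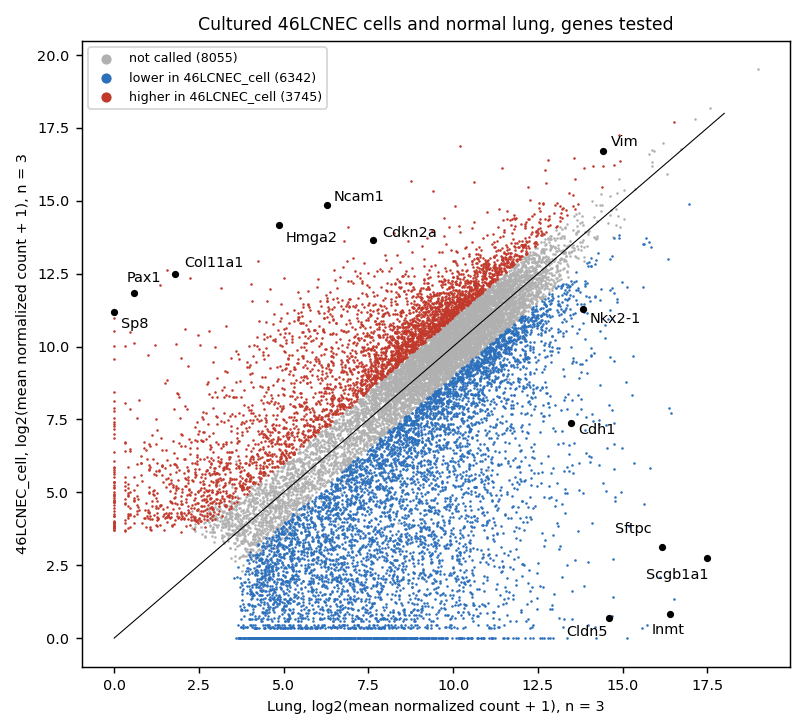
Mean normalized counts of the 18142 genes tested in Lung (x axis) and in 46LCNEC_cell (y axis), each as log2(mean + 1) over 3 samples, with the line of equal values. Red points are the 3745 genes that were higher and blue points the 6342 that were lower in the cells, and the named genes lie far from the line, with Scgb1a1, Sftpc, Inmt and Cldn5 near the bottom right and Pax1 and Sp8 near the left edge.

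The genes deleted in the QKO model were read first. A gene's counts sum over all its exons, those outside a deleted stretch included, and recombination itself was not measured. Rb1 (ENSMUSG00000022105, chromosome 14, 73421113 to 73563507, - strand) had 66.6, 90.5 and 99.9 in the dishes and 298, 247 and 329 in the lungs, so that each dish lay below each lung (log2 difference -1.76, SE 0.20, adjusted p = 2.68e-05). Trp53 (ENSMUSG00000059552, chromosome 11, 69469669 to 69482701, + strand) had 1435, 1414 and 1548 in the dishes and 1536, 1356 and 1250 in the lungs, and the groups overlapped (log2 difference 0.09, SE 0.09, adjusted p = 0.377). Rbl1 (ENSMUSG00000027641, chromosome 2, 156987813 to 157046475, - strand), which encodes the Rb relative p107, had 1491, 1701 and 1664 in the dishes and 750.4, 868 and 872 in the lungs. All dishes were above all lungs, but the change stayed just under 2-fold (log2 difference 0.96, SE 0.09, adjusted p = 8.08e-06) and passed it with edgeR, DESeq2, TMM and upper quartile scaling, and without dish A or lung CT5. Rbl2, for the relative p130, had 199, 174 and 152 in the dishes and 596, 421 and 413 in the lungs (log2 difference -1.43, SE 0.18, adjusted p = 5.07e-05).

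The largest rises were those of genes with next to no reads in the lung. Pax1 (ENSMUSG00000037034, chromosome 2, 147203845 to 147235215, + strand), a paired box transcription factor of the embryonic pharynx and vertebral column, had 4075, 3491 and 3357 in the dishes and 1.495, 0 and 0 in the lungs and was 5816-fold higher, 95% counting interval 1610 to 48020, adjusted p = 5.73e-09. Sp8 (ENSMUSG00000048562, chromosome 12, 118810064 to 118816311, + strand), a zinc finger factor of limb and forebrain development, had 2525, 2162 and 2380 in the dishes and 0, 0 and 0 in the lungs and was at least 2509-fold higher, adjusted p = 4.20e-10. The largest rises were picked among genes whose groups do not overlap, and for both of these genes every dish was far above every lung. Col11a1, a fibrillar collagen chain of cartilage, had 5431, 5862 and 5864 in the dishes and 4.49, 2.99 and 0 in the lungs (log2 difference 10.997, SE 0.53, adjusted p = 8.34e-08). Pkp1, a desmosome protein of stratified epithelia, had 4999, 4085 and 4098 in the dishes and 2.24, 0 and 2.34 in the lungs (log2 difference 10.95, SE 0.43, adjusted p = 2.18e-08). The homeobox genes Hoxb9 (1444 ± 219 against 0.39 ± 0.68) and Dlx2 (1048 ± 62.9 against 0.25 ± 0.43) and the non-coding RNA gene Wincr1 (1042 ± 97.2 against 0 in all samples) were the other rises of this size that are reported here.

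Many of the largest falls were those of genes that mark a cell type of the lung. Inmt, an indole methyltransferase gene of lung fibroblasts, had 0, 0 and 2.31 in the dishes and 78190, 84260 and 96150 in the lungs (94030-fold lower, 95% counting interval 32180 to 456000, adjusted p = 2.18e-09). Slc34a2, the phosphate transporter of alveolar type 2 cells, had 0, 1.10 and 0 in the dishes and 48350, 53630 and 60890 in the lungs (177700-fold lower, 95% counting interval 31890 to 7018000, adjusted p = 3.85e-10). Sec14l3, of ciliated cells, had 0, 0 and 0.77 in the dishes and 46910, 52070 and 46900 in the lungs (159100-fold lower, 95% counting interval 28560 to 6285000, adjusted p = 1.38e-10). The club cell cytochrome gene Cyp2f2 had 0, 0 and 0 in the dishes and 34570, 42840 and 30940 in the lungs (at least 39400-fold lower, adjusted p = 5.69e-11). The lysozyme genes Lyz2 (1.51 ± 0.39 against 93120 ± 14510) and Lyz1 (0 in all samples against 18850 ± 3524), which are near-identical copies whose reads can be split between them, the club cell secretoglobin gene Scgb1a1 (5.74 ± 3.09 against 184700 ± 34270), the surfactant protein gene Sftpa1 (3.29 ± 2.03 against 70810 ± 8459), Mfap4 of elastic fibers (0.68 ± 0.60 against 26630 ± 2855) and the endothelial claudin gene Cldn5 (0.62 ± 0.57 against 24920 ± 2858) completed the largest falls. The largest falls were picked among genes in which the lowest lung was above the highest dish, so that this separation is no result. Per kilobase of exon, Scgb1a1, Sftpc, Cbr2, Inmt and the pseudogene Tpt1-ps3 had the highest normalized counts of named genes in Lung, and Tpt1-ps3, Txn-ps1, Actb, Tubb5 and Eif4a-ps4 in 46LCNEC_cell. Reads of the source genes and their processed copies were divided unevenly, with 8689 reads over the 6 samples on Tpt1 and 155821 on 7 of its pseudogenes, so that levels between genes are uncertain and the comparisons below are made within a gene.

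**Figure D2:**
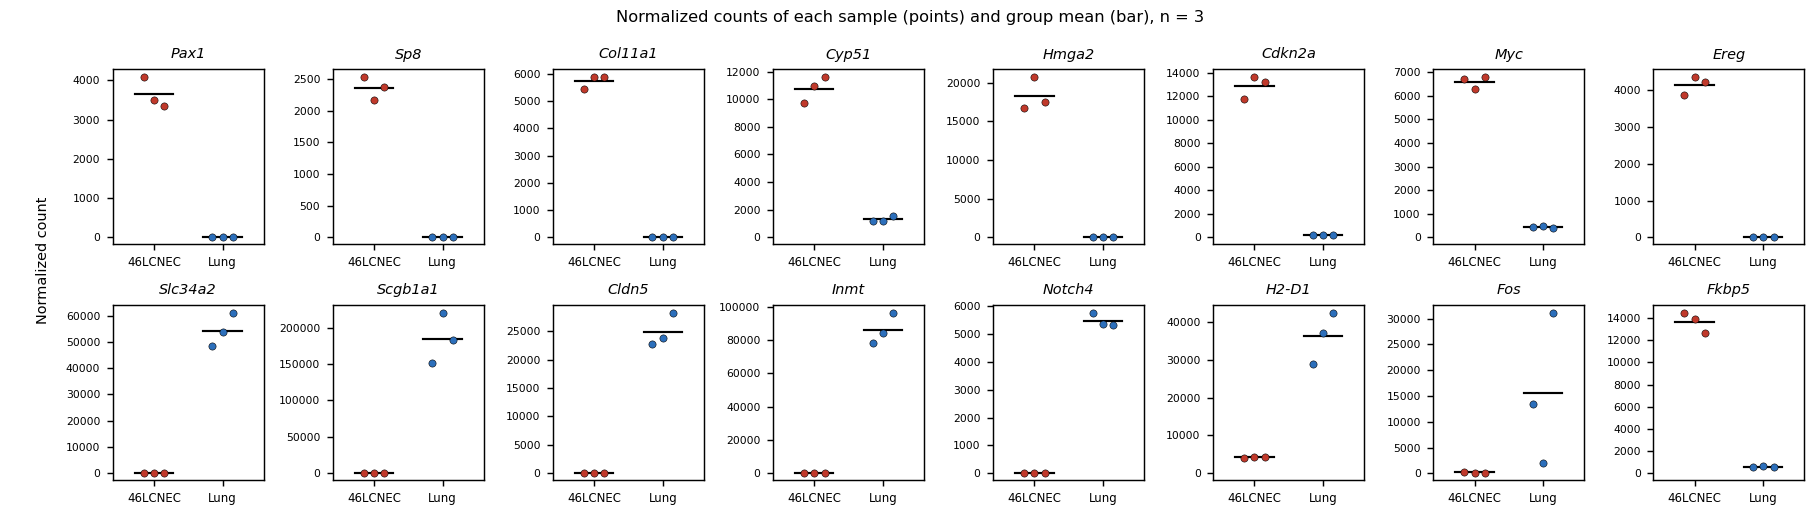
Normalized counts of 16 genes in the 3 dishes of 46LCNEC_cell (red) and the 3 samples of Lung (blue), with the group mean as a bar and an axis from 0 for each gene. The groups are apart in every panel, and the 3 lungs differ most among themselves for Fos, from 2077 in CT4 to 31040 in CT5.

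Genes of DNA replication and mitosis rose almost without exception. Of 31 DNA replication genes in the matrix, 28 were tested and 27 were higher, 1 was not called and 0 were lower, beside 20.6% higher and 35.0% lower over all genes, and their median difference was 3.52. All 23 mitosis genes tested were higher, with a median of 4.87. Cdt1, Tk1, Gins2 and Prc1 of these lists are listed at 0 in all 15 samples. Uhrf1, which carries DNA methylation through replication, had 7296, 8498 and 9169 in the dishes and 120.3, 168 and 103 in the lungs (log2 difference 6.01, SE 0.17, adjusted p = 3.67e-09). Mcm5 (4517 ± 351 against 285 ± 31.6, log2 difference 3.99) of the replicative helicase, Chaf1a (4886 ± 276 against 157 ± 18.1, 4.96) of a histone chaperone, Cdc6 (1555 ± 132 against 51.6 ± 7.36, 4.89), which loads the helicase, and Rrm2 (4635 ± 615 against 159 ± 40.0, 4.88), which makes deoxyribonucleotides, rose in the same way. Cdk1, the kinase that starts mitosis, had 4498, 5290 and 5611 in the dishes and 50.8, 89.8 and 49.2 in the lungs (log2 difference 6.37, SE 0.22, adjusted p = 9.45e-09). Its cyclin gene Ccnb1 had 1779, 1778 and 1973 in the dishes and 23.2, 24.9 and 15.2 in the lungs (log2 difference 6.41, SE 0.19, adjusted p = 4.84e-09). The kinetochore genes Cenpe (3859 ± 406 against 52.1 ± 10.1, 6.19) and Cenpf (7772 ± 600.3 against 116 ± 34.8, 6.08) rose by a similar size, and Mki67, the gene of the proliferation antigen Ki-67, had 15980 ± 642 against 662 ± 62.4 (4.60).

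Against 57SCLC_cell, 16920 genes were tested, and 3756 (22.2%) were higher and 4043 (23.9%) lower in 46LCNEC_cell. Of the 28 replication genes tested, 3 (Mcm4, Orc1 and Uhrf1) were higher than in that line and 0 were lower. Of the 23 mitosis genes, 0 were higher and 1, Nusap1, was lower.

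The bases upstream of the RefSeq start of 4 of these genes are printed because the genes moved together and share short motifs. For replication genes the capitals mark the E2F core searched as TTGGCGC or TTCCCGC or TTCGCGC or TTGCCGC. For mitosis genes they mark the CHR element TTTGAA and the CCAAT box, which reads CCAAT or, from the other strand, ATTGG. All motifs were searched on both strands. The genes are those with the largest rises whose last 120 bases before the start hold the motif, in GRCm38.p6 coordinates.
Uhrf1, chr17:56303217-56303336, + strand: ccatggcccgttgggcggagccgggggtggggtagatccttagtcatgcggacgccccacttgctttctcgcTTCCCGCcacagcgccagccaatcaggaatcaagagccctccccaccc
Chaf1a, chr17:56040296-56040415, + strand: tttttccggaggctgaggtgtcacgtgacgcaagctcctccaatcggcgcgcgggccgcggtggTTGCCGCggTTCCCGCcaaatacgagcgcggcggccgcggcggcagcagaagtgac
Cdk1, chr10:69352913-69353032, - strand: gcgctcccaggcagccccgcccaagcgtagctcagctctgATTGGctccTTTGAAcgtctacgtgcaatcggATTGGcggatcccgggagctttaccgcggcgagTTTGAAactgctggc
Cdc20, chr4:118437344-118437463, - strand: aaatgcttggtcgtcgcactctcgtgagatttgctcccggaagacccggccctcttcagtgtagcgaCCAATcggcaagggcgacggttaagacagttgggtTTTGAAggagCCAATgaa

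In the 250 bases before the start, an E2F core was found in 16 of 30 windows (53.3%) of the 25 replication genes with a RefSeq window, and in 2591 of 32851 windows of all genes (7.89%). The CHR element was found in 8 of 20 windows (40%) of 19 mitosis genes against 16% of all windows, and the CCAAT box in 17 of 20 (85%) against 33.8%. An E2F core was found in 3 of the 20 mitosis windows (15%). A match is a run of letters, and binding was not measured.

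The regulators of the G1 phase split. Among 24 genes, 12 were higher and 3 lower. Cdkn2a, which encodes the CDK inhibitor p16 and the p53 activator Arf, had 11760, 13620 and 13200 in the dishes and 185, 214 and 197 in the lungs (log2 difference 6.01, SE 0.09, adjusted p = 1.38e-10), the largest rise of the list. The repressor genes E2f8 (1507 ± 158 against 59.9 ± 3.48, 4.63) and E2f7 (939 ± 14.2 against 49.3 ± 13.4, 4.26), E2f1 (4088 ± 131 against 549.7 ± 91.7, 2.91), the cyclin gene Ccne1 (634 ± 52.5 against 47.0 ± 8.57, 3.74) and Skp2 (2202 ± 72.6 against 186 ± 18.5, 3.57), whose protein targets p27 for degradation, were also higher. Ccnd1, for cyclin D1, had 11060, 8517 and 9046 in the dishes and 3200, 3244 and 3373 in the lungs (log2 difference 1.53, SE 0.10, adjusted p = 5.63e-07), whereas Ccnd2 had 250.5, 193 and 182 in the dishes and 4279, 4973 and 4604 in the lungs (log2 difference -4.47, SE 0.13, adjusted p = 3.44e-09). Cdkn1c, for the CDK inhibitor p57, had 31.0, 36.4 and 37.7 in the dishes and 719, 928 and 782 in the lungs (log2 difference -4.49, SE 0.16, adjusted p = 1.41e-08). In 57SCLC_cell, Ccnd1 had 13.1, 12.7 and 24.5 and Cdk6 had 0.55, 1.206 and 0.52, and both were higher in 46LCNEC_cell (9.12 and 11.32), while E2f2 (9333, 9070 and 6371) was lower (-4.07).

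Genes activated by p53 changed in both directions. Of 25 tested, 11 were lower and 4 higher, beside 35.0% and 20.6% of all genes, with a median of -0.62. Fas, the death receptor gene, had 101, 145 and 161 in the dishes and 1495, 1402 and 1408 in the lungs (log2 difference -3.42, SE 0.16, adjusted p = 7.76e-08). Trp53inp1 had 637 ± 98.7 against 2811 ± 94.1 (-2.15). Eda2r, a death domain receptor gene, had 0, 0 and 0 in the dishes and 97.9, 76.8 and 55.0 in the lungs (at least 83.5-fold lower). The classical targets Cdkn1a (1116 ± 144 against 1708 ± 171, log2 difference -0.62, SE 0.12, adjusted p = 8.13e-04), Mdm2 (2132 ± 143 against 2845 ± 209, -0.42) and Bax (610.1 ± 48.9 against 511 ± 35.4, 0.25) stayed within 2-fold. Phlda3 (7257 ± 446 against 1986 ± 166, 1.87) and Pidd1 (599.5 ± 57.6 against 133 ± 12.99, 2.16) were higher. Btg2, which is also an immediate early gene, had 584, 341 and 296 in the dishes and 15700, 5936 and 40200 in the lungs, so that the lungs spread widely (log2 difference -5.32, SE 0.58, adjusted p = 2.20e-05).

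Neuroendocrine genes were for the most part low in the dishes. Of 22 genes, 15 were tested, 8 were lower and 4 higher than in the lung, beside 35.0% and 20.6% of all genes. Of the 15, 5 were under 10 normalized counts in every dish and 1 in every lung. These could pass the filter through the other group only, so that their direction was fixed and their values alone are read. Ncam1 (ENSMUSG00000039542, chromosome 9, 49413436 to 49710357, - strand), the gene of the adhesion molecule N-CAM stained in the study, had 28610, 29680 and 31510 in the dishes and 71.0, 79.8 and 77.3 in the lungs (log2 difference 8.60, SE 0.08, adjusted p = 5.33e-11), so that each dish was above every lung by far. Uchl1, a ubiquitin hydrolase gene of neuroendocrine cells, had 699, 689 and 816 in the dishes and 113, 104 and 129.9 in the lungs (log2 difference 2.66, SE 0.14, adjusted p = 1.11e-07). The rises of Scg5 (72.9 ± 12.6 against 34.7 ± 7.92, 1.06) and of the neuronal RNA-binding gene Elavl3 (15.2 ± 0.91 against 4.33 ± 2.83, 1.73) were small in counts and lost the call without any of several samples, so that the list had 2 genes higher without dish B, without dish C or without CT5. Chga, for chromogranin A, did not reach the filter, with 3.75, 6.62 and 2.31 in the dishes and 7.47, 10.97 and 1.17 in the lungs. Calca, for calcitonin and CGRP, had 3.75, 6.62 and 1.54 in the dishes and 14.2, 28.9 and 22.2 in the lungs (log2 difference -2.28, SE 0.45, adjusted p = 0.00113). The synaptic vesicle gene Syp had 15.01, 15.4 and 10.8 in the dishes and 61.3, 62.8 and 52.7 in the lungs (log2 difference -2.04, SE 0.25, adjusted p = 5.08e-05). Insm1, a neuroendocrine transcription factor gene, had 10.3, 5.52 and 1.54 in the dishes and 26.2, 23.9 and 21.1 in the lungs (log2 difference -2.11, SE 0.50, adjusted p = 0.00348). The secretory granule gene Chgb (3.92 ± 2.93 against 43.1 ± 8.12, -3.39), the prohormone convertase gene Pcsk1 (1.39 ± 1.23 against 25.8 ± 6.24, -3.63) and the RNA-binding gene Elavl4 (2.24 ± 1.49 against 33.3 ± 7.60, -3.49) had few counts in the dishes. Chgb, Pcsk1, Elavl4 and Calca were under 10 normalized counts in every dish, so that their direction is no result. The call of Insm1 was lost without any 1 of the lungs (adjusted p 0.0120 to 0.0195). Sstr2, Grp and Neurod1 are listed at 0 in all 15 samples. By staining, the study also reported CGRP and SSTR2 protein in cultured cells of its lines. It reported chromogranin A protein in the tumors that LCNEC cells formed under the skin. The values here are of RNA, and the difference between RNA and protein was not tested.

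The contrast with 57SCLC_cell was large for this list. Of 19 genes tested between the lines, 18 were lower in 46LCNEC_cell, beside 23.9% of all genes, and Ncam1 alone was higher. Genes under 10 normalized counts in every dish, such as Chga and Calca, could pass the filter through the flasks only. Their direction was fixed by it, so that they are read by their values. The flasks had 4598, 4291 and 6449 for Ncam1 (log2 difference 2.57, SE 0.15, adjusted p = 1.500e-06), 9885, 9737 and 8951 for Chga (log2 difference -10.91, SE 0.28, adjusted p = 1.93e-08), 35270, 35300 and 43050 for Calca (log2 difference -13.03, SE 0.35, adjusted p = 2.45e-08) and 39940, 36470 and 26640 for Insm1 (log2 difference -12.53, SE 0.48, adjusted p = 1.43e-07). Flask C stood apart from flasks A and B, with a chi-square per degree of freedom of 144 and 127 against 2.80 between A and B, and without it 4020 genes were higher and 4094 lower in 46LCNEC_cell.

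**Figure D3:**
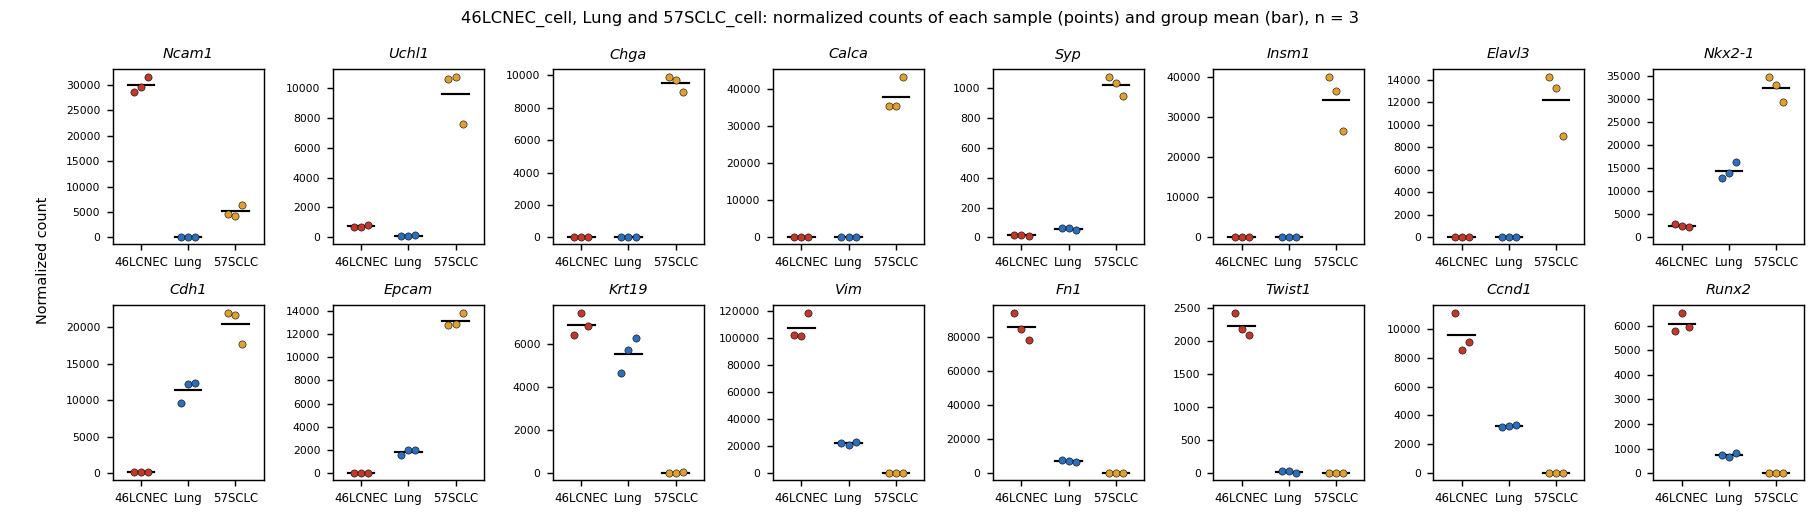
Normalized counts of 16 neuroendocrine, epithelial, mesenchymal and cell cycle genes in the 3 dishes of 46LCNEC_cell (red), the 3 samples of Lung (blue) and the 3 flasks of 57SCLC_cell (yellow), with the group mean as a bar. Ncam1 is highest in 46LCNEC_cell, Chga, Calca, Syp, Insm1 and Elavl3 are highest in 57SCLC_cell, and Vim, Fn1, Twist1 and Runx2 are highest in 46LCNEC_cell.

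Most transcription factors of the lung that were tested were lower in the dishes. Of 20 lung factors tested, 15 were lower and 1, Sox9, was higher. Of the 20, 5 were under 10 normalized counts in every dish, Tbx4 and Tbx5 among them. These could pass the filter through the lungs only, so that their direction was fixed by it. Nkx2-1 (ENSMUSG00000001496, chromosome 12, 56578742 to 56583722, - strand), the master factor of lung epithelium, had 2883, 2421 and 2244 in the dishes and 12950, 14050 and 16410 in the lungs (log2 difference -2.52, SE 0.12, adjusted p = 6.09e-08). It was reduced but kept over 2000 normalized counts in each dish. Foxa2, a factor of the endoderm, had 4522, 3794 and 3682 in the dishes and 2322, 2620 and 2675 in the lungs and did not fall (log2 difference 0.65, SE 0.10, adjusted p = 1.78e-04). Sox9, of distal lung progenitors and cartilage, had 2224, 2004 and 1967 in the dishes and 51.6, 40.9 and 36.3 in the lungs (log2 difference 5.57, SE 0.15, adjusted p = 2.65e-09). Tbx4, a factor of lung mesenchyme, had 0, 2.21 and 1.54 in the dishes and 4876, 4211 and 4747 in the lungs (log2 difference -11.16, SE 0.39, adjusted p = 1.11e-08), and its relative Tbx5 had 0, 0 and 0 in the dishes and 2366, 2105 and 1951 in the lungs (at least 2336-fold lower). Hopx (27.4 ± 1.78 against 28270 ± 3653, -9.95), of alveolar type 1 cells, was also among the largest falls.

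Several patterning factors of other body regions were well expressed in the dishes and had next to no reads in the lungs. Of the 38 in the list, which was drawn up with earlier results of these data known, 24 passed the filter on low counts, and 13 of these were under 10 normalized counts in every lung, so that they could pass through the dishes only and had to be higher there. The 21 that were called higher are therefore described by their values and read as no result about the list. En1, an engrailed homeobox gene of the midbrain and limb, had 726, 755 and 820.3 in the dishes and 0, 0 and 0 in the lungs and was at least 817-fold higher, adjusted p = 1.44e-09. Dlx5, of branchial arches and bone, had 375, 345 and 309.8 in the dishes and 0, 0 and 0 in the lungs and was at least 366-fold higher, adjusted p = 4.10e-09. Six3, of the forebrain and eye, had 278, 189 and 198 in the dishes and 0, 0 and 0 in the lungs and was at least 236-fold higher, adjusted p = 1.18e-08. The lung samples held 0 reads of all 3 genes. Tbx15 (1689 ± 141 against 8.85 ± 0.58, 7.42) and Tbx18 (625 ± 53.1 against 14.1 ± 7.79, 5.49), of limb and body wall mesenchyme, and the Runx genes Runx3 (6882 ± 1082 against 566 ± 32.8, 3.59) and Runx2 (6086 ± 368 against 744 ± 70.9, 3.03), of cartilage and bone, were higher too. Msx1 was the single gene of the list that fell (98.3 ± 18.6 against 299.5 ± 41.4, -1.61).

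Among Hox genes, 9 of 39 were tested. Of the 30 that did not pass the filter on low counts, 15 are listed at 0 in all 15 samples. The posterior genes of 1 cluster rose, with Hoxb9 at 1695, 1340 and 1295 in the dishes and 0, 0 and 1.17 in the lungs (4612-fold higher, 95% counting interval 828 to 182200, adjusted p = 8.41e-09), Hoxb8 at 1421, 1285 and 1279 in the dishes and 25.4, 19.9 and 24.6 in the lungs (log2 difference 5.78, SE 0.15, adjusted p = 2.43e-09) and Hoxb7 at 586 ± 36.9 against 83.2 ± 5.58 (2.80). Their neighbor Hoxb3 (157 ± 29.9 against 129 ± 23.8) was not called. Hoxa7 (22.7 ± 1.04 against 204 ± 62.3, -3.07) and Hoxa2 (23.7 ± 2.52 against 125.1 ± 9.43, -2.35) fell.

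Markers of the cell types of the lung fell in the dishes, list by list. All tested markers were lower for alveolar type 1 cells (9 of 9), alveolar type 2 cells (11 of 11), club cells (6 of 6), endothelial cells (14 of 14), macrophages (12 of 12), T and NK cells (11 of 11), B cells (5 of 5), neutrophils (5 of 5), erythroid cells (4 of 4) and Schwann cells (4 of 4). For ciliated cells it was 9 of 10. The summed markers of club cells lay between 12.1 and 27.2 normalized counts in the dishes and between 208900 and 282600 in the lungs. Those of T and NK cells lay between 20.8 and 31.9 against 3948 to 4795. Other lists kept more counts in the dishes than these, with sums of 12610 to 14010 for alveolar type 1 cells against 211200 to 245300 in the lungs. For alveolar type 2 cells they were 5226 to 6293 against 284900 to 380900. Endothelial markers summed to 434 to 519 against 152700 to 177500. Markers under 10 normalized counts in every dish, such as 9 of the 14 endothelial and 10 of the 11 T and NK cell genes, could pass the filter through the lungs only, so that their direction was fixed by it.

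Of alveolar type 2 genes, Sftpc, a surfactant protein gene, had 8.44, 5.52 and 9.23 in the dishes and 58060, 76020 and 85870 in the lungs (log2 difference -13.04, SE 0.19, adjusted p = 1.43e-10), and Sftpd was listed at 0 in all dishes (at least 11440-fold lower, adjusted p = 1.38e-10). Some markers of this list stayed well above 0. Cxcl15, a lung chemokine gene, had 2431, 3608 and 2777 in the dishes and 22050, 29870 and 36010 in the lungs (log2 difference -3.31, SE 0.19, adjusted p = 2.68e-07). Lpcat1, of surfactant lipid synthesis, had 2251, 2190 and 2356 in the dishes and 13980, 15350 and 18300 in the lungs (log2 difference -2.80, SE 0.10, adjusted p = 1.34e-08). Among type 1 genes, Emp2 (11010 ± 543 against 58240 ± 790.3, -2.40) and the water channel gene Aqp5 (1328 ± 83.8 against 9765 ± 2132, -2.86) kept counts above 1000. Ager (90.6 ± 14.5 against 32560 ± 5243, -8.47) fell further, and Cldn18 (5.56 ± 2.51 against 27000 ± 5295, -12.07) was near 0. Foxj1, the factor of motile cilia, had 31.0, 8.83 and 25.4 in the dishes and 4686, 5706 and 3833 in the lungs (log2 difference -7.85, SE 0.39, adjusted p = 9.62e-08). Of the endothelial genes, Cdh5 had 0.94, 3.31 and 0.77 in the dishes and 29540, 24550 and 26210 in the lungs (-13.41), Tie1 was listed at 0 in all dishes (at least 8685-fold lower) and Kdr, a VEGF receptor gene, kept 290.0 ± 22.5 against 14040 ± 1064 (-5.59). Of the immune genes, Chil3, of alveolar macrophages, had 0, 0 and 0 in the dishes and 3407, 2370 and 3660 in the lungs (at least 3432-fold lower). Cd3e, of the T cell receptor complex, had 0, 0 and 0 in the dishes and 419, 329 and 323 in the lungs (at least 389.6-fold lower). Ighm, of B cells, had 0, 1.10 and 0 in the dishes and 5543, 6539 and 3730 in the lungs (17250-fold lower, 95% counting interval 3096 to 681300).

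The mesenchymal and basal lists split within themselves. Col1a1, of the main collagen of connective tissue, had 20720, 19770 and 22400 in the dishes and 2105, 3024 and 3349 in the lungs (log2 difference 2.92, SE 0.16, adjusted p = 1.56e-07) and rose, as did Col1a2 (50210 ± 3865 against 6878 ± 1518, 2.89), whereas the fibroblast genes Dcn (11.1 ± 2.70 against 2535 ± 559.6, -7.71), Lum (0.74 ± 1.27 against 414 ± 219.8, 678-fold lower, 95% counting interval 188 to 5595) and Mfap4 were near 0 in the dishes. Of the smooth muscle and pericyte list 8 of 9 genes fell, with Des at 15.8 ± 2.46 against 4984 ± 308 (-8.22) and Myh11 at 16.4 ± 6.87 against 3144 ± 671 (-7.57), and Pdgfrb did not differ by 2-fold (6346 ± 323 against 5244 ± 170.1, 0.27). Msln, for mesothelin, had 4071, 4194 and 4425 in the dishes and 398, 406 and 557 in the lungs (log2 difference 3.23, SE 0.13, adjusted p = 2.22e-08), while the other mesothelial genes Upk3b (1.36 ± 1.19 against 1083 ± 389.7, -8.95), Lrrn4 (1.73 ± 1.66 against 336 ± 105, -7.14) and Wt1 (27.9 ± 4.45 against 70.0 ± 20.8, -1.26) fell. Of the basal cell genes, Krt14 had 92.0, 87.2 and 134 in the dishes and 2.24, 1.0 and 8.19 in the lungs (log2 difference 4.73, SE 0.52, adjusted p = 2.22e-05), whereas Trp63 had 12.2, 2.21 and 4.61 in the dishes and 33.6, 30.9 and 21.1 in the lungs (log2 difference -2.23, SE 0.49, adjusted p = 0.00231) and Krt5 had at most 1.54 in a dish. The fall of Trp63 was not called without dish C, CT3 or CT4 (adjusted p 0.0115 to 0.0155). The lungs were unequal in some of the tissue they held. Myh6, of the cardiac muscle in pulmonary veins, had 5994, 3748 and 91.3 in CT3, CT4 and CT5. Hbb-bs, of red blood cells, had 11870, 30520 and 14070 in the same order. The lungs also differed in sex-linked RNA, with reads of the Y-linked gene Ddx3y in CT3 only (829).

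**Figure D4:**
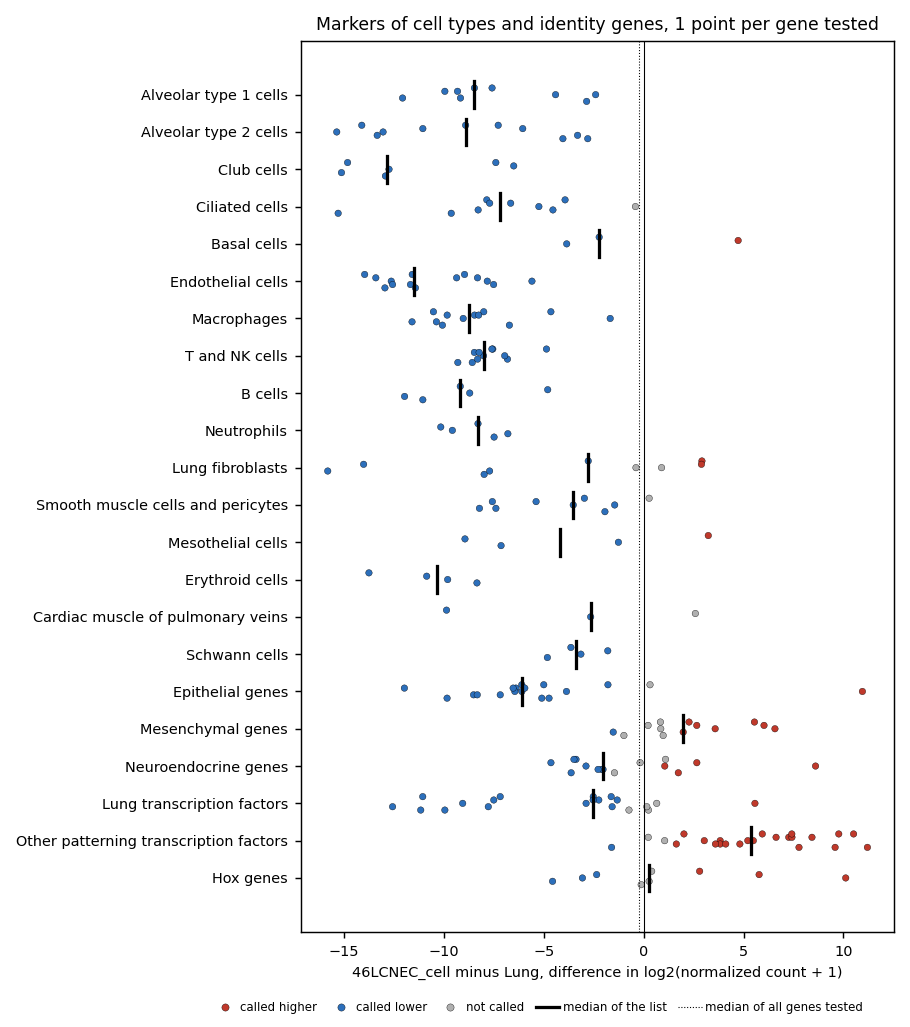
Differences of log2(normalized count + 1), 46LCNEC_cell minus Lung (x axis), of the tested genes in 22 lists of cell type markers and identity genes, 1 point per gene, red where the gene was higher, blue where it was lower and gray where it was not called. Thick bars are the list medians and the dotted line the median of all genes (-0.23), and the patterning factors that passed the filter lie mostly to the right while most lung lists lie to the left.

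Most epithelial genes were lower in the dishes, and several mesenchymal genes were higher. Of 18 epithelial genes 16 were lower, beside 35.0% of all genes, with a median of -6.10. Of the 18, 6 were under 10 normalized counts in every dish and 1 in every lung. These could pass the filter through the other group only, so that their direction was fixed by it. Cdh1, for E-cadherin, had 161, 172 and 161 in the dishes and 9697, 12250 and 12440 in the lungs (log2 difference -6.10, SE 0.10, adjusted p = 3.11e-10). Epcam had 17.8, 24.3 and 20.8 in the dishes and 1549, 1992 and 1999 in the lungs (log2 difference -6.40, SE 0.17, adjusted p = 2.65e-09). The tight junction gene Ocln had 1.248 ± 1.13 against 1844 ± 53.8 (-9.84). Esrp1, a splicing regulator of epithelia, had 2.75 ± 0.77 against 1192 ± 101 (-8.33), and the keratin genes Krt8 (2.13 ± 0.23 against 1146 ± 121, -8.51) and Krt18 (42.4 ± 2.65 against 1491 ± 182, -5.10) fell with it. Krt19 did not, with 6425, 7443 and 6839 in the dishes and 4673, 5733 and 6307 in the lungs (log2 difference 0.32, SE 0.11, adjusted p = 0.0269), and Pkp1 rose. Of 13 mesenchymal genes 7 were higher and 1, Zeb1, was lower (2189 ± 24.9 against 6306 ± 362, -1.52). Vim, for vimentin, had 102000, 101300 and 118300 in the dishes and 22220, 21160 and 23110 in the lungs (log2 difference 2.27, SE 0.11, adjusted p = 8.81e-08). Fn1, for fibronectin, had 93870, 84520 and 78460 in the dishes and 7795, 7070 and 6616 in the lungs (log2 difference 3.58, SE 0.10, adjusted p = 4.15e-09). Cdh2, for N-cadherin, had 2879, 2665 and 2888 in the dishes and 68.0, 51.9 and 21.1 in the lungs (log2 difference 6.02, SE 0.35, adjusted p = 2.92e-07). Twist1 had 2423, 2182 and 2090 in the dishes and 35.1, 29.9 and 10.5 in the lungs (log2 difference 6.57, SE 0.37, adjusted p = 2.35e-07). Prrx2 had 1951 ± 87.5 against 41.9 ± 11.34 (5.54), while Snai1 (1713 ± 199 against 964 ± 173) and Snai2 (592 ± 79.1 against 511 ± 92.1) stayed within 2-fold. Against 57SCLC_cell, 12 of 13 mesenchymal genes were higher and 15 of 18 epithelial genes lower in 46LCNEC_cell, beside 22.2% and 23.9% of all genes. Genes such as Ocln and Krt8, under 10 normalized counts in every dish, could pass that filter through the flasks only, so that their direction was fixed. The flasks had 10.4, 16.3 and 18.8 for Vim and 21930, 21730 and 17750 for Cdh1.

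Receptors of the extracellular matrix and the proteases that cut it changed gene by gene. Of 16 adhesion genes 4 were higher, namely the fibronectin receptor gene Itga5 (19810 ± 1415 against 1568 ± 136, 3.66), Itgav (9348 ± 56.7 against 1706 ± 110.5, 2.46), Cd44 (15360 ± 1062 against 6270 ± 722, 1.297) and Itgb5 (6832 ± 219 against 3210 ± 256, 1.09), and 6 were lower, with Itgb6 (7.50 ± 2.01 against 918 ± 251, -6.75) and Itga1 (225 ± 30.1 against 9248 ± 232, -5.36) changing most. Between the lines, 14 of 15 were higher in 46LCNEC_cell than in 57SCLC_cell, beside 22.2% of all genes. One line was adherent and the other grew in suspension, but they also differed in tumor type, virus and passage. These differences cannot be told apart here. Of 16 protease and inhibitor genes, 7 rose and 7 fell. Mmp14, a membrane-bound protease gene, had 14620, 14310 and 14910 in the dishes and 1869, 1924 and 2370 in the lungs (log2 difference 2.84, SE 0.10, adjusted p = 9.12e-09). Mmp23 had 900.4 ± 45.8 against 109.7 ± 9.10 (3.03). Mmp15 had 39.3 ± 1.88 against 8495 ± 364 (-7.72). Mmp8, of neutrophils, and Mmp12, of macrophages, fell with the markers of those cells (-5.17 and -5.85). In the cluster of proximal chromosome 9 that holds Yap1, Birc2 and several Mmp genes, Yap1 had 6321, 5484 and 5812 in the dishes and 5804, 6130 and 6208 in the lungs (log2 difference -0.04, SE 0.08, adjusted p = 0.598). Birc2 had 1055 ± 48.5 against 1773 ± 35.5 (-0.75) and Birc3 619 ± 32.4 against 1989 ± 216 (-1.68). Of the 14 tested genes of the cluster, 2 were higher, Mmp3 (268 ± 81.9 against 48.0 ± 15.03) and Mmp13 (124.6 ± 21.0 against 32.7 ± 9.51), and 8 were lower. Of the 14, 5 were under 10 normalized counts in every dish, Mmp8 and Mmp12 among them, so that their direction was fixed by the filter.

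Oncofetal genes, which are active in the embryo, rose in 7 of 12 tested cases and fell in 4. Hmga2 (ENSMUSG00000056758, chromosome 10, 120197173 to 120313095, - strand), a chromatin protein gene of embryonic tissue, had 16740, 20680 and 17480 in the dishes and 35.9, 25.9 and 22.2 in the lungs (log2 difference 9.32, SE 0.17, adjusted p = 3.80e-10). The imprinted gene Peg10 had 19860, 16790 and 16100 in the dishes and 132, 138 and 85.5 in the lungs (log2 difference 7.227, SE 0.17, adjusted p = 1.53e-09) and Dlk1, whose protein is a membrane relative of the Notch ligands, had 405, 457 and 421 in the dishes and 2.24, 2.00 and 1.17 in the lungs (log2 difference 7.28, SE 0.25, adjusted p = 1.00e-08). Meg3, the non-coding RNA gene next to Dlk1 that is read from the other parental allele, went the other way, with 0, 0 and 0 in the dishes and 1188, 1318 and 1032 in the lungs (at least 1287-fold lower). Of the mRNA-binding genes Igf2bp1 (1104 ± 61.3 against 67.1 ± 3.22, 4.02) and Igf2bp2 (4034 ± 95.5 against 457 ± 16.1, 3.14) rose and Igf2bp3 (326 ± 35.0 against 258 ± 53.6, 0.35) did not. H19 had 671, 541 and 487 in the dishes and 169, 85.8 and 74.9 in the lungs (log2 difference 2.44, SE 0.29, adjusted p = 3.57e-05), and Plagl1, an imprinted zinc finger gene, fell (46.7 ± 11.5 against 1421 ± 146, -4.92).

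The EGF and ERK pathway was read because the medium of the cells held EGF. The part of the medium in these values was not tested. Of 21 genes, 9 were higher and 6 lower. Among ligands, Ereg, for epiregulin, had 3860, 4343 and 4216 in the dishes and 5.23, 6.98 and 11.7 in the lungs (log2 difference 8.91, SE 0.24, adjusted p = 3.02e-09), Tgfa fell (249 ± 61.3 against 1234 ± 64.6, -2.33), and Areg was not called (143 ± 11.1 against 127 ± 124, log2 difference 0.63, and 1.41, adjusted p = 0.00301, without CT5). The receptor gene Egfr had 1753, 1898 and 1864 in the dishes and 780.3, 932 and 880.3 in the lungs (log2 difference 1.09, SE 0.09, adjusted p = 2.29e-06). Among targets of ERK, Etv4 had 3795, 4305 and 4013 in the dishes and 23.9, 20.9 and 24.6 in the lungs (log2 difference 7.39, SE 0.12, adjusted p = 2.43e-10), Fosl1 2109, 1569 and 1625 in the dishes and 24.7, 35.9 and 12.9 in the lungs (log2 difference 6.22, SE 0.32, adjusted p = 1.215e-07) and the phosphatase gene Dusp4 4411 ± 545 against 794 ± 212 (2.50), while the inhibitors Spry1 (790.5 ± 105 against 4485 ± 1160, -2.48), Spry2 (812 ± 85.4 against 2185 ± 281, -1.42) and Spry4 (337 ± 49.9 against 1362 ± 426, -1.97) and the factor gene Etv5 (1271 ± 86.3 against 4322 ± 836, -1.749) fell. In 57SCLC_cell, Egfr had 7.09, 11.5 and 6.77 and Etv4 3.27, 4.83 and 6.77. Between the lines 19 of the 21 genes were higher in 46LCNEC_cell, beside 22.2% of all genes. Genes under 10 normalized counts in every flask, such as Etv4, could pass the filter through the dishes only, so that their direction was fixed.

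Of the receptor tyrosine kinase genes, 5 of 27 rose and 14 fell. Of the 27, 4 were under 10 normalized counts in every dish, so that their direction was fixed by the filter. Ephb2, an ephrin receptor gene, had 2791, 2749 and 2694 in the dishes and 144, 169.5 and 104 in the lungs (log2 difference 4.32, SE 0.16, adjusted p = 1.64e-08). Axl had 17790, 16920 and 17310 in the dishes and 4298, 4213 and 4723 in the lungs (log2 difference 1.98, SE 0.07, adjusted p = 1.62e-08). Fgfr4 (3.18 ± 1.58 against 3067 ± 539, -9.58), Erbb3 (18.8 ± 6.52 against 1866 ± 152, -6.61), Kit (-6.74) and Ntrk2 (0.31 ± 0.54 against 510.3 ± 106, 1670-fold lower, 95% counting interval 299.7 to 65960) fell most. Met, the receptor gene of hepatocyte growth factor, was not called, with 2520, 2474 and 2756 in the dishes and 2307, 2448 and 2602 in the lungs (log2 difference 0.08, SE 0.08, adjusted p = 0.375).

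Notch signaling passes between neighboring cells, and Notch receptors cleaved by ligand binding switch on Hes and Hey genes. Of 16 genes tested, 11 were lower and 1, Notch2, was higher, and the median was -4.99. Of the 16, 2 were under 10 normalized counts in every dish, so that their direction was fixed by the filter. Of the receptors, Notch2 had 10600, 10720 and 11170 in the dishes and 4448, 4422 and 3946 in the lungs (log2 difference 1.34, SE 0.07, adjusted p = 1.88e-07). Notch1 had 280.5, 201 and 206 in the dishes and 6869, 4346 and 4914 in the lungs (log2 difference -4.54, SE 0.18, adjusted p = 2.67e-08). Notch3 had 16.99 ± 7.44 against 1487 ± 349 (-6.42). Notch4, of endothelial cells, had 21.9 ± 7.48 against 5481 ± 227 (-7.96). Of the ligands, Dll4 had 9.42 ± 3.44 against 4032 ± 1088 (-8.61). Dll1 had 13.3 ± 1.05 against 1468 ± 137 (-6.68). Jag1 had 711 ± 73.4 against 2134 ± 115 (-1.59). Of the targets, Hes1 had 1008, 1132 and 1065 in the dishes and 4424, 3887 and 5543 in the lungs (log2 difference -2.10, SE 0.12, adjusted p = 2.91e-07). Hey1 had 11.8 ± 1.31 against 3527 ± 449 (-8.11). Heyl had 1.195 ± 1.46 against 1293 ± 79.6 (1082-fold lower). Several of these genes are expressed by endothelial cells, whose markers fell as well, and the part of those cells in the list was not tested.

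Effectors of the Hippo pathway and their targets were close to the level of the lung. Of 14 genes, 3 were higher and 0 were lower. Ccn2, a YAP target for a matrix protein, had 12910, 13660 and 16800 in the dishes and 4926, 4316 and 9118 in the lungs (log2 difference 1.31, SE 0.25, adjusted p = 8.72e-04). Tead2 had 2613 ± 84.2 against 642 ± 88.7 (2.03). The effector gene Yap1 was not called, and the sign of its small difference turned with TMM and upper quartile scaling and with edgeR and DESeq2. In 57SCLC_cell Ccn2 was listed at 0 in all flasks and Yap1 had 344, 384 and 616. Between the lines 12 of 14 genes were higher in 46LCNEC_cell, beside 22.2% of all genes. Genes under 10 normalized counts in every flask, such as Ccn2, could pass the filter through the dishes only, so that their direction was fixed.

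Genes that respond to glucocorticoids were read because the medium held hydrocortisone, whose part was not tested either. Of 13 genes, 4 were higher and 5 lower. Fkbp5, a co-chaperone gene of the receptor complex, had 14450, 13900 and 12650 in the dishes and 567, 696 and 528 in the lungs (log2 difference 4.52, SE 0.11, adjusted p = 1.49e-09). The kinase gene Sgk1 had 13690, 13480 and 14900 in the dishes and 4935, 4557 and 5054 in the lungs (log2 difference 1.53, SE 0.08, adjusted p = 9.66e-08). The metallothionein genes Mt1 (2712 ± 607 against 640.3 ± 41.7, 2.06) and Mt2 (314 ± 85.4 against 36.9 ± 5.77, 3.03) rose, whereas the receptor gene Nr3c1 (2082 ± 161 against 7405 ± 172, -1.83) and Zbtb16 (1914 ± 209.5 against 4477 ± 847, -1.22) fell, and Tsc22d3 (4581 ± 256 against 6159 ± 847, -0.42) and Per1 (8332 ± 866 against 5390 ± 1483, 0.66) were not called. Among clock genes, the activators Clock (6422 ± 147 against 2146 ± 105, 1.58) and Arntl (1500 ± 120.2 against 386 ± 70.5, 1.97) and the repressor Nfil3 (2338 ± 108 against 261 ± 53.1, 3.17) were higher, and the output gene Dbp (264 ± 46.2 against 7073 ± 849, -4.75), Hlf (44.5 ± 4.67 against 1600 ± 115, -5.14) and the repressor Nr1d1 (1435 ± 102 against 8775 ± 1847, -2.59) were lower. The time of day of sampling is not given in the sources used here.

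Immediate early genes rise within minutes of a stimulus, tissue handling included. In the lung they differed most between samples. Fos had 277, 142 and 159.9 in the dishes and 13530, 2077 and 31040 in the lungs (log2 difference -5.69, SE 0.81, adjusted p = 1.40e-04), Nr4a1 859, 855 and 795 in the dishes and 13300, 1367 and 36560 in the lungs (log2 difference -3.38, SE 0.96, adjusted p = 0.00883) and Egr1 13320, 6329 and 5650 in the dishes and 10860, 1396 and 27100 in the lungs (log2 difference 0.07, SE 0.90, adjusted p = 0.944). CT5 was highest and CT4 lowest among the lungs for all 9 genes of the list. Of the 9 genes, 6 were lower in the dishes, and the number was 3 without CT3, without CT5, without any single dish, or with a pseudocount of 0.1. Nr4a1 was not called without CT3, without CT5 or without any single dish (adjusted p 0.0248 to 0.0517). The difference of Egr1 was -1.14 without CT4 and -0.31 without dish A.

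Genes of ribosome biogenesis rose as a whole list, 20 of 20, with a median of 2.16. Myc, a driver of this program, had 6695, 6281 and 6801 in the dishes and 434, 485 and 409.7 in the lungs (log2 difference 3.90, SE 0.08, adjusted p = 8.21e-10). Nop56, of the box C/D particles that methylate ribosomal RNA, had 6447, 6817 and 7831 in the dishes and 738, 695 and 504 in the lungs (log2 difference 3.46, SE 0.14, adjusted p = 2.96e-08). Nop58 had 5250 ± 715 against 611 ± 16.8 (3.09). In the flasks of 57SCLC_cell, Myc had 93.8, 109.8 and 65.7 (log2 difference 6.21, SE 0.17, adjusted p = 3.00e-08).

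Glycolytic genes rose in 14 of 20 cases. The lactate exporter gene Slc16a3 had 21760, 21190 and 22930 in the dishes and 815, 787 and 944 in the lungs (log2 difference 4.70, SE 0.08, adjusted p = 3.80e-10). Eno1 had 2218 ± 206 against 143 ± 30.6 (3.96). Pgk1 had 5702 ± 230.4 against 378 ± 33.9 (3.91). Pkm, for pyruvate kinase, had 66720, 67160 and 72380 in the dishes and 6237, 7075 and 7003 in the lungs (log2 difference 3.35, SE 0.09, adjusted p = 2.59e-09). Eno1, Pgk1 and Gapdh have processed copies in the genome, which makes their counts uncertain. Of the hypoxia targets in the list, Vegfa fell (12210 ± 1106 against 56050 ± 2477, -2.20) and Car9 was not called (39.6 ± 4.46 against 48.7 ± 7.00).

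Serine and one-carbon genes and other targets of the stress factor ATF4 rose in 15 of 19 cases, with a median of 2.77. Aldh1l2, of mitochondrial folate metabolism, had 2626, 2277 and 1927 in the dishes and 49.3, 43.9 and 31.6 in the lungs (log2 difference 5.75, SE 0.19, adjusted p = 7.20e-09). Psat1, of serine synthesis, had 8926, 8987 and 9145 in the dishes and 237, 279 and 242 in the lungs (log2 difference 5.16, SE 0.08, adjusted p = 2.16e-10). Phgdh, its first enzyme, had 3434, 3681 and 3780 in the dishes and 139.8, 170.5 and 166 in the lungs (log2 difference 4.51, SE 0.10, adjusted p = 1.04e-09). The cystine transporter gene Slc7a11 (2772 ± 76.7 against 199.5 ± 11.29, 3.79) and Asns (2467 ± 182 against 311 ± 4.41, 2.98), for asparagine synthetase, rose, and Stc2 (26.1 ± 6.21 against 368 ± 76.2, -3.77) and Cbs (30.4 ± 5.54 against 199 ± 35.5, -2.67) fell. The element through which ATF4 is known to act, CARE, was searched as TGATGNAA on both strands and was found in 3 of 18 windows of this list (16.7%) and in 3.45% of all windows. It is shown in capitals in the last 120 bases before the RefSeq start of both members that held it in this stretch, in GRCm38.p6 coordinates.
Slc7a11, chr3:50443614-50443733, - strand: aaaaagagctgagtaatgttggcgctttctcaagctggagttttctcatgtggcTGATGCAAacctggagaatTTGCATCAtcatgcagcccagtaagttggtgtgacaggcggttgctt
Asns, chr6:7693210-7693329, - strand: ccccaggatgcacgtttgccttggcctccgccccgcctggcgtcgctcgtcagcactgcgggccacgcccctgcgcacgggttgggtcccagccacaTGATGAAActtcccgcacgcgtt

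Cholesterol and fatty acid genes rose in 16 of 22 cases and 1, Scd1, fell. Cyp51, an enzyme gene of sterol synthesis, had 9744, 10940 and 11640 in the dishes and 1159, 1185 and 1584 in the lungs (log2 difference 3.05, SE 0.13, adjusted p = 2.99e-08). Lss, for lanosterol synthase, had 513 ± 31.8 against 62.2 ± 35.6 (3.16). The desaturase genes parted, with Scd2 at 160500, 152700 and 153700 in the dishes and 25220, 36710 and 30180 in the lungs (log2 difference 2.36, SE 0.15, adjusted p = 5.80e-07) and Scd1 at 14520, 13330 and 12340 in the dishes and 40470, 79760 and 38750 in the lungs (log2 difference -1.90, SE 0.25, adjusted p = 7.234e-05). The SRE, searched as TCACNCCAC on both strands, was found in 1 of 17 windows of the list and in 1.05% of all windows. Of 15 NRF2 targets, 7 rose and 3 fell, with Abcc1 (7760 ± 519 against 1513 ± 92.6, 2.36) and Txnrd1 (14140 ± 1398 against 2842 ± 304, 2.32) higher and Nqo1 (12.9 ± 1.55 against 129 ± 22.9, -3.22) lower.

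**Figure D5:**
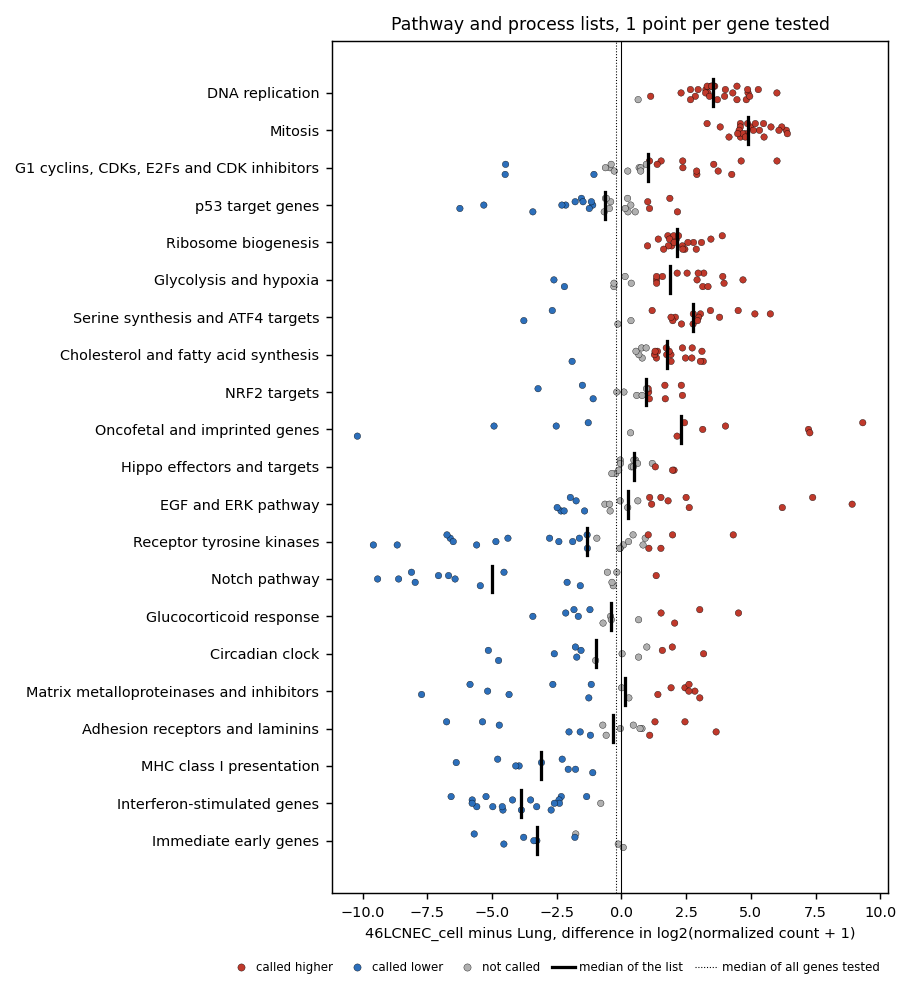
Differences of log2(normalized count + 1), 46LCNEC_cell minus Lung (x axis), of the tested genes in 21 pathway and process lists, 1 point per gene, red where the gene was higher, blue where it was lower and gray where it was not called. Thick bars are the list medians and the dotted line the median of all genes (-0.23). The medians of DNA replication (3.52), mitosis (4.87) and ribosome biogenesis (2.16) lie to the right, and those of the Notch (-4.99), MHC class I (-3.09) and interferon (-3.86) lists to the left.

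Genes of antigen presentation and of the interferon response were low in the dishes. All 9 MHC class I genes tested fell, with a median of -3.09, and B2m, H2-T23 and Psmb10 are listed at 0 in all 15 samples. The class I heavy chain genes, which share near-identical stretches, had 4015, 4258 and 4346 in the dishes and 28890, 37180 and 42460 in the lungs for H2-D1 (log2 difference -3.09, SE 0.13, adjusted p = 3.65e-08) and 3713, 4212 and 4090 in the dishes and 26930, 11130 and 24790 in the lungs for H2-K1 (log2 difference -2.29, SE 0.29, adjusted p = 5.61e-05). The immunoproteasome gene Psmb9 had 13.1, 15.4 and 16.9 in the dishes and 1148, 1296 and 1613 in the lungs (log2 difference -6.38, SE 0.18, adjusted p = 3.96e-09). The peptide transporter gene Tap1 had 159 ± 15.9 against 2484 ± 334 (-3.95). Nlrc5, the activator of class I genes, had 66.2 ± 12.03 against 1131 ± 146 (-4.08). Of 19 interferon-stimulated genes 18 fell and Ifit2 was not called (978 ± 65.8 against 1713 ± 262). Of the 19, 3 were under 10 normalized counts in every dish, so that their direction was fixed by the filter. Oasl2 had 15.01, 21.0 and 20.8 in the dishes and 1781, 1622 and 2303 in the lungs (log2 difference -6.58, SE 0.19, adjusted p = 4.15e-09). Irf7 had 19.5 ± 3.56 against 642 ± 126 (-4.97). Immune cells of the lung express many of these genes. Their summed markers lay between 338 and 389.8 in the dishes against 17680 to 21250 in the lungs for macrophages, with Cd68 at 320.4 ± 22.4 against 1030 ± 137, and at most 31.9 in a dish for T and NK cells, B cells and neutrophils, and their part in the difference was not tested. Against 57SCLC_cell, 4 of the 9 class I genes were higher and 1 lower, and 5 of 16 interferon-stimulated genes were higher and 7 lower. Over all genes, 22.2% were higher and 23.9% lower between the lines.

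The moLCNEC_signature of the study, drawn up from spontaneous tumors of the CMV-QKO mice measured on arrays, was counted last. The study chose its genes for being higher in those tumors than in normal lung. A rise against Lung was therefore in part built into the list, and the counts are no separate test of it. Of its 403 symbols, 356 are in the matrix and 336 were tested. In 46LCNEC_cell, 276 were higher than in Lung, 35 were lower and 25 were not called, with a median of 3.18. Against 57SCLC_cell, 46 of 329 were higher and 40 lower, beside 22.2% and 23.9% of all genes.

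The genes with the largest differences from both Lung and 57SCLC_cell in 1 direction are given with all their values, since both comparisons use the same dishes. Col11a1, Pax1, Dlx2 and Wincr1, whose values in dishes and lungs are given above or follow here, were near 0 in the flasks too. The flasks had 0, 0.60 and 0 for Col11a1, 4.91, 4.22 and 2.08 for Pax1, 0, 1.206 and 0 for Dlx2 and 0, 0.60 and 0 for Wincr1. Dlx2 had 1117, 1032 and 995 in the dishes and 0.75, 0 and 0 in the lungs (3348-fold higher, 95% counting interval 601 to 132300, adjusted p = 4.03e-09). Wincr1 had 950.4, 1032 and 1144 in the dishes and 0, 0 and 0 in the lungs (at least 1110-fold higher, adjusted p = 1.08e-09). In the other direction, Cldn3, a tight junction gene of epithelia, had 1.88, 1.10 and 0 in the dishes and 6493, 7517 and 8130 in the lungs and 10960, 10800 and 8228 in the flasks (8051-fold lower, 95% counting interval 2755 to 39040 than in Lung). Cadps2, for a protein that primes secretory vesicles, had 0, 0 and 0 in the dishes and 1678, 1608 and 1818 in the lungs and 4617, 4435 and 6405 in the flasks (at least 1856-fold lower than in Lung). The protease gene Tmprss2 had 0, 1.10 and 2.31 in the dishes and 2234, 2553 and 2969 in the lungs and 2673, 2642 and 2603 in the flasks (2274-fold lower than in Lung). Wscd1 had 0, 1.10 and 0 in the dishes and 1872, 1611 and 1660 in the lungs and 6864, 6807 and 5091 in the flasks (5610-fold lower, 95% counting interval 1007 to 221600 than in Lung), and St8sia4, which adds polysialic acid to N-CAM, had 0.94, 0 and 0 in the dishes and 2268, 1880 and 2238 in the lungs and 1800, 1638 and 1393 in the flasks (6966-fold lower, 95% counting interval 1250 to 275200 than in Lung). Among these 3 groups Ncam1 was highest in the line in which this enzyme gene was at or near 0.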

How the data were processed

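Total RNA of 46LCNEC_cell, 57SCLC_cell and Lung was read as poly-A RNA on an Illumina NovaSeq in pairs, per the study's methods. The authors aligned the reads with Rbowtie2 to GRCm39, counted them per gene with featureCounts on a GENCODE annotation and divided them by DESeq2 size factors, and the deposited signal values are these normalized counts. Bowtie 2 does not split reads at introns, so that reads across exon junctions may be lost or placed on processed pseudogenes.

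In all 15 samples 100% of the values were whole multiples of 1 read (tolerance 0.01 read), so that reads were recovered. The main test was limma 3.58.1 (trend, in R 4.3.3) on log2(normalized count + 1) of the 6 samples, for genes that reached 10 normalized counts in 3 or more samples. A call needed a 2-fold change and a p no higher than 0.01 after Benjamini-Hochberg adjustment. edgeR 4.0.16 on the recovered reads called 4215 genes higher and 6071 lower, and DESeq2 1.42.0 was also run. On simulated counts of 17770 genes of 46LCNEC_cell against Lung, limma found 97% of 4-fold and 100% of 8-fold changes among 200 changed genes, with 0 other calls. The simulation used 1 common dispersion and known size factors, and few genes changed, whereas 10087 genes were called in the data. It therefore gives no rate of false calls for this comparison. The A, B and C samples were separate dishes of 1 line, so that p-values cover the spread between cultures and not between tumors. Counting intervals (exact Poisson, 95%) and bounds cover counting error only.

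Named genes are those deleted in the model, the 10 largest non-overlapping changes in each direction with at least 50 normalized counts in each sample of the higher group, leading or described members of lists, genes whose proteins were stained, the 5 highest genes per kilobase in each group and the 5 largest changes in each direction against both Lung and 57SCLC_cell. The comparison and the lists were chosen with earlier results of these data known. A few of the genes so named were left out and are not reported here. Positions are those of GENCODE 39 on GRCm39, and promoter windows are those of RefSeq on GRCm38.p6, in which a gene can have several. Samples of the allograft tumors were used in the alternative with all 15 samples only. The alternatives were other tests, scalings, pseudocounts, filters and thresholds, and leaving out each sample.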

Additional observations from a re-analysis of the deposited data

Results flagged for a closer look

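Groups of 3 samples were not tested for single samples far from the others. The genes below lay far from both Lung and 57SCLC_cell in 1 direction, and the difference of the lines was tested directly. Against 57SCLC_cell the fitted log2 difference was 12.25 for Col11a1, 9.80 for Wincr1, 9.65 for Dlx2 and 9.63 for Pax1. It was -12.41 for Cldn3, -12.31 for Cadps2, -12.24 for Wscd1, -10.43 for Tmprss2 and -10.33 for St8sia4. In most of these genes the lower group had few reads or none, so that the fitted sizes depend on the pseudocount and are no bounds. Each of the 3 dishes lay on the same side of all 3 flasks for all 9 genes. The genes were picked by size among all genes tested, and the values describe 1 line of each kind.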

How the results depend on the processing

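No gene called against Lung or 57SCLC_cell was called in the other direction under any of the alternatives run. Against Lung, 3594 to 3814 genes were higher and 6286 to 6553 lower when 1 sample was left out, and 2480 were higher and 5031 lower when limma tested against a 2-fold change. Without a filter on low values 4275 were higher and 7490 lower. With upper quartile scaling the median of all genes moved from -0.23 to -0.02, and 43.2% of the called genes were higher against 37.1%. Against 57SCLC_cell, 3608 to 4020 were higher and 3932 to 4147 lower when 1 sample was left out, and library size scaling moved the median from 0.00 to -0.24 and gave 3223 higher and 4847 lower. The letters A, B and C do not pair dishes and flasks (correlations of their deviations 0.092, -0.084 and -0.0062), and not every sample correlated best with its own letter. With the letter as a replicate block 3756 genes were higher and 4041 lower, of which 3733 and 4016 were called without it.

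Of 4165 values of 245 single genes against Lung under the alternatives, 4092 kept direction and call, 53 lost the call, 8 gained it and 12 turned direction. The 12 belong to 3 genes that were not called. Egr1 had -0.54 with DESeq2, -0.50 with edgeR, -0.31 without dish A and -1.14 without CT4, up to 1.00 without CT5. Yap1 had 0.051 with DESeq2, 0.077 with TMM scaling, 0.089 with edgeR and 0.155 with upper quartile scaling, and from -0.0985 to 0.004 when 1 sample was left out. Tpt1-ps3 had 0.020 with TMM scaling, 0.028 with edgeR and 0.099 with upper quartile scaling. With all 15 samples in 1 model the calls of Nkx2-1 (adjusted p = 0.0496), Msln (0.0182), Trp63 (0.0181), Wt1, Nqo1, Birc3 and Mmp13 were lost, at the same differences. Of 1564 counts of list members 1523 stayed within 1.5 times. The cause of these changes was not tested. A group without reads of a gene allows up to 3 reads, which limits the smallest level shown.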

Other observations

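By chromosome, the median log2 difference of the genes tested was lowest for chromosomes 7 (-0.85, 1319 genes), 8 (-0.66, 877 genes) and 12 (-0.54, 672 genes) and highest for chromosomes 3 (0.21, 915 genes) and X (0.17, 631 genes). On chromosome 7, 11.1% of the genes tested were higher and 45.5% lower, and on chromosome 3 it was 27.5% and 28.5%. Gene content differs between chromosomes, and copy number was not measured.

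Xist is listed at 0 in all samples compared here. The Y-linked genes Ddx3y (829), Eif2s3y (461), Kdm5d (261) and Uty (292) had reads in CT3 and none in CT4, CT5 or the 3 dishes.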
